A study of Rattus norvegicus with 19 samples.

Results

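The extracellular matrix proteases of the matrix metalloprotease (MMP) and ADAMTS families, and the tissue inhibitors of metalloproteases (TIMPs), were compared between mammary carcinomas and normal mammary glands of the rat. Genes were taken by name: every probe, control spots excluded, whose RefSeq accession mapped to a symbol beginning with Mmp, Adamts or Timp and a number, ADAMTS-like genes included. This gave 37 genes of the 15168 with a probe on the array, namely 21 MMPs, 12 ADAMTS or ADAMTS-like genes and 4 TIMPs, carried by 43 probes. The gene table holds 52 symbols of this kind, and the 15 without a mapped probe, among them the procollagen-processing Adamts2, Adamts3 and Adamts14, were not analysed here.

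The MMPs and the ADAMTS enzymes are zinc proteases that cut the proteins and proteoglycans of the matrix outside the cell. Most are secreted as inactive precursors, some MMPs are held at the cell surface, and TIMPs block the active enzymes by binding to the catalytic site. In the mammary gland these genes are known for their part in duct branching and in the regression of the gland after lactation, and in tumours much of their RNA is made by fibroblasts and leukocytes rather than by the cancer cells.

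The samples were 6 normal mammary glands and 13 mammary carcinomas, each on a single-colour Agilent array, from female F1 hybrids of Sprague-Dawley and Copenhagen rats. The labels call the carcinomas radiation-induced and describe 4 Gy of caesium gamma rays to the whole body at 0.5 Gy per minute, given at 7 weeks of age, with other rats left untreated. Whether a normal gland's rat was irradiated is not stated, nor is the age of any rat at collection, so tumour, irradiation and age cannot be told apart in these groups. Sample codes differ between all 19 arrays and carry a number, or a letter in 1 normal gland and 3 carcinomas, but nothing states that each came from its own rat, and p-values measure the spread between these samples.

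The 75th percentile of spot intensity ran from 295.5 to 673 in normal glands and from 485 to 1428 in carcinomas, so the carcinoma arrays were brighter. Between 65.5% and 77.2% of spots were well above background in normal glands, and between 62.3% and 84.2% in carcinomas. Across 12714 genes, arrays correlated with r of 0.922 to 0.978 among normal glands, 0.885 to 0.959 among carcinomas and 0.854 to 0.937 between the groups. The arrays lay on 3 slides, with 3 normal glands and 4 carcinomas on slide 1, 2 and 4 on slide 2, which was scanned on another day, and 1 and 5 on slide 3. All 10 listed luminal epithelial genes, such as Epcam and Krt8, and all 8 listed basal genes passed the filter on dim probes. So did 12803 of all 15168 genes, which makes this a weak check of the tissue.

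Levels below are log2 intensities relative to each array's own 75th percentile, so a level of 0 equals that percentile, and a level is compared only between arrays and never between genes. A change is the carcinoma mean minus the normal mean on that scale, with its standard error from limma, 6 normal glands and 13 carcinomas. Adjusted p-values are Benjamini-Hochberg values over all 12803 genes tested, with a threshold of 0.05. A gene was tested if a probe was well above background on at least 6 arrays, and 33 of the 37 genes were.

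Of the 33 genes tested, 2 were higher and 8 were lower in the carcinomas, and 23 did not pass the threshold. The higher genes were Adamts18 and Mmp16. The lower genes were Mmp27, Mmp7, Timp4, Mmp23, Mmp11, Timp2, Adamts5 and Timp1. The 10 genes are 30.3% of those tested, beside 22.9% of all genes, with 6.06% against 9.7% for the higher direction and 24.2% against 13.2% for the lower. The median change was -0.46 over the 33 genes and 0.01 over all genes, and 24 of the 33 changes were negative. These counts are descriptions, since Mmp16 and Mmp10 were above background in no normal gland and entered the test through the carcinomas alone. Under quantile normalization all genes split into 1569 higher and 1414 lower, in place of 1242 and 1692.

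In 0 of the 33 genes did all carcinoma levels lie on one side of all normal levels, a separation seen in 2.47% of all genes tested (0.539% with carcinomas higher and 1.93% with carcinomas lower). In bulk tissue, fewer cells of a type and less RNA per cell cannot be told apart, which touches every result here. By family, 1 of 18 tested MMPs rose and 4 fell, 1 of 11 ADAMTS or ADAMTS-like genes rose and 1 fell, and 3 of 4 TIMPs fell.

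**Figure D1:**
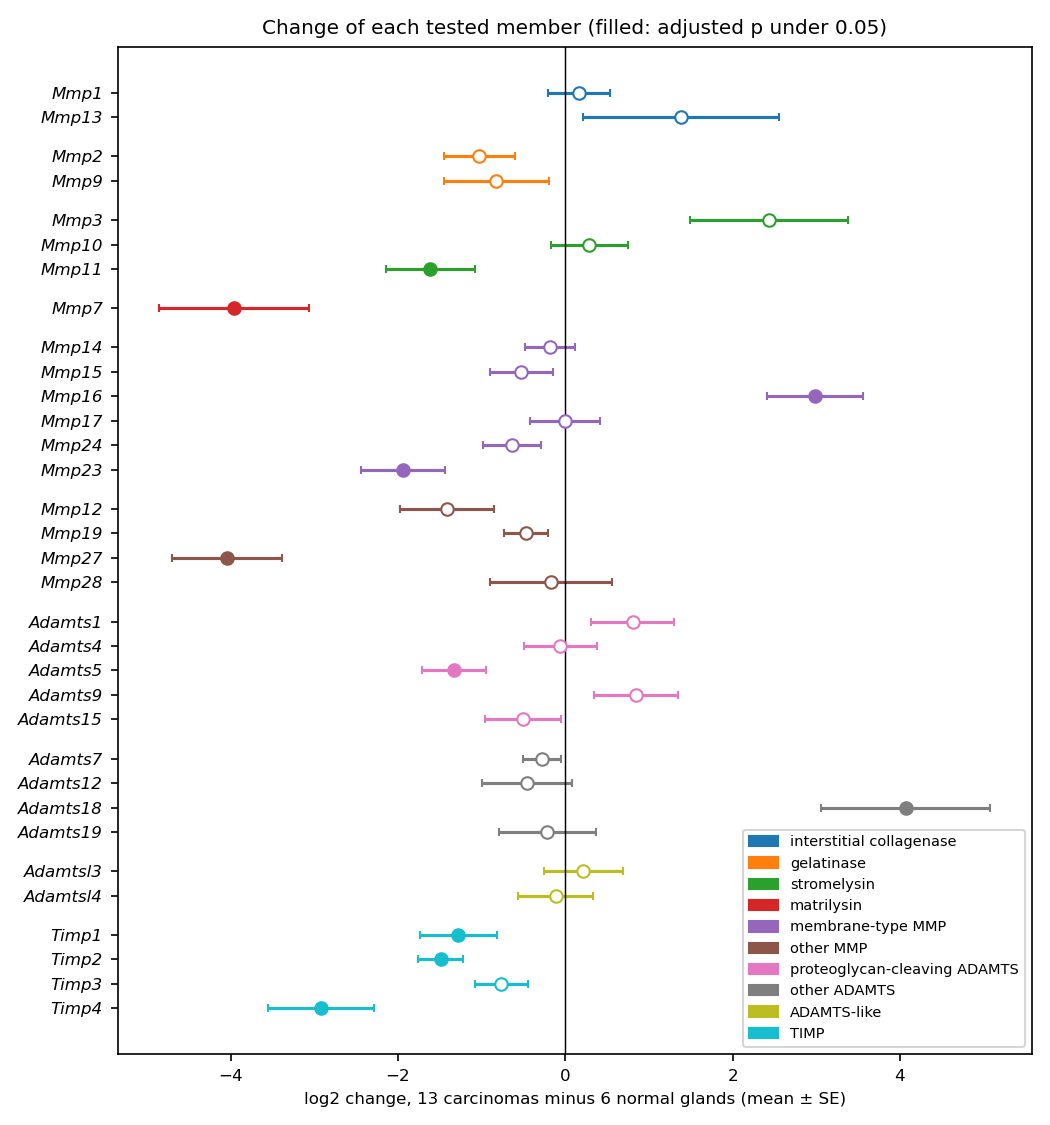
Change of each of the 33 tested genes, in log2 units, carcinoma minus normal gland (points, fitted change; bars, standard error; 6 normal glands and 13 carcinomas), ordered by role and coloured by it. Filled points passed the threshold; Adamts18 at 4.07 and Mmp16 at 2.98 stand to the right and 8 genes from -1.28 to -4.04 to the left.

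A group of 10 MMP genes lies side by side on chromosome 8 of the rat assembly GRCr8, in the order Mmp13, Mmp12, Mmp1b, Mmp3, Mmp1, Mmp10, Mmp8, Mmp27, Mmp20 and Mmp7, with no other protein-coding gene between them in the RefSeq table. Of these, 9 had a probe and 7 were tested. Block genes outside the rule for named genes (Mmp3, Mmp12, Mmp10, Mmp1, Mmp8 and Mmp20) were chosen after their values were seen. The block holds 2 genes that fell, Mmp27 and Mmp7, and Mmp13, which had the largest SD among carcinomas. The 100 bases before the RefSeq start are printed for 6 of them, chosen because their levels are described next: chr8:12782729-12782828 for Mmp13, chr8:12866552-12866651 for Mmp12, chr8:12925181-12925280 for Mmp3, chr8:12974607-12974706 for Mmp10, chr8:13030652-13030751 for Mmp27 and chr8:13132943-13133042 for Mmp7, all on the plus strand and read 5′ to 3′. Capitals mark matches to the consensus of AP-1, the Jun and Fos transcription factor that is known to act on several MMP promoters. It was searched in the loose form TGANTCA, where N is any base. This pattern reads alike on both strands, while a single match such as TGAGTCA reads TGACTCA on the other.
Mmp13: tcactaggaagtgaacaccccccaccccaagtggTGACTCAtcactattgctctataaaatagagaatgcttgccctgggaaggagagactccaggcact
Mmp12: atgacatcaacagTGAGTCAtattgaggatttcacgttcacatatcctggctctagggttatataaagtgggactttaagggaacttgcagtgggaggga
Mmp3: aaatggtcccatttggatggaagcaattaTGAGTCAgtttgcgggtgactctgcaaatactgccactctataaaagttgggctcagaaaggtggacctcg
Mmp10: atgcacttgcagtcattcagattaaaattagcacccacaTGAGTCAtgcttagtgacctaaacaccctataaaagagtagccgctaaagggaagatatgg
Mmp27: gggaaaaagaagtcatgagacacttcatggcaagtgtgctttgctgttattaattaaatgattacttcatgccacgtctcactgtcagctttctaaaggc
Mmp7: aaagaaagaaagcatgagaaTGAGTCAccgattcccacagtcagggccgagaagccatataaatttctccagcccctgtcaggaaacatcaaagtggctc

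The motif lay in this window in 7 of the 9 block genes with a RefSeq promoter sequence: Mmp13, Mmp12, Mmp3, Mmp1, Mmp10, Mmp20 and Mmp7. On the strand of the gene it was spelled TGAGTCA in 5 of them, TGACTCA in Mmp13 and TGAATCA in Mmp20. TGAGTCA and TGACTCA are the same site read from opposite strands. Mmp20, with A in the middle, matched only because that base was left free. Every match lay between 55 and 96 bases before the start. The other 19 MMP, ADAMTS and TIMP genes with a promoter sequence held the motif in 0 windows. Mmp2, Mmp9, Mmp14, Mmp16, Mmp17, Mmp19, Adamts5, Adamts15 and Adamts19 had no promoter sequence and were not searched. Of all 33469 rat promoters in the table, 2.47% held it in the same window and 6.34% in the 250 bases before the start. A match is a stretch of letters and says nothing about binding in these samples. The windows of Mmp27, which fell, and of Mmp8, which was not tested, did not hold these letters. Mmp7 fell with the motif, and Mmp13 and Mmp3 held it without passing the threshold. Whether the letters bear on the direction of change was not tested.

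**Figure D2:**
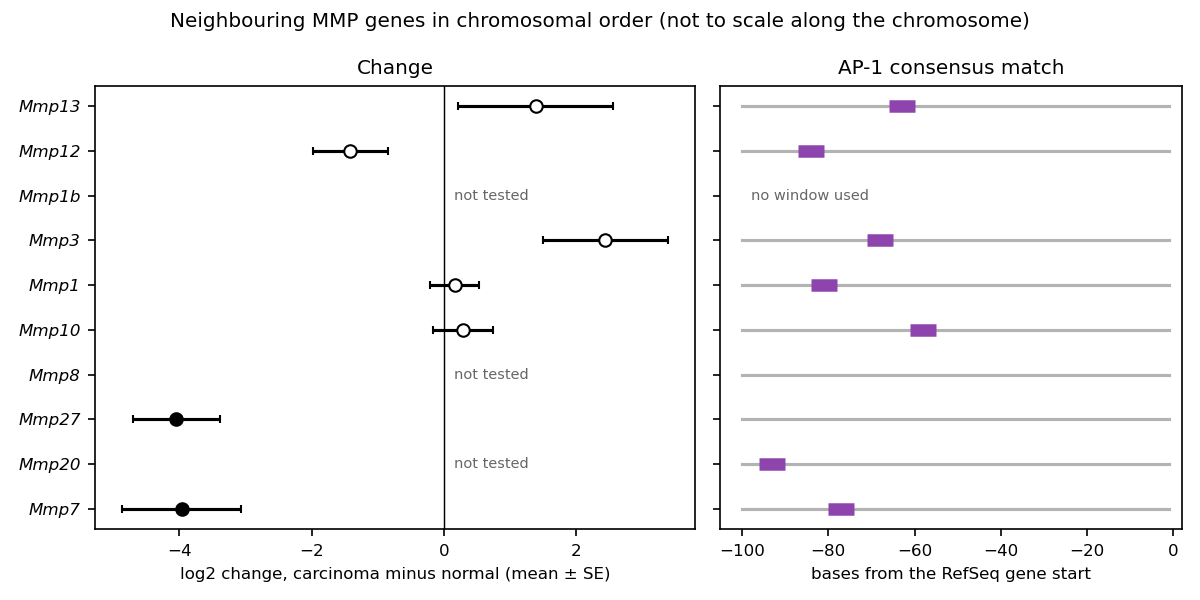
Left, change of each gene of the MMP block in log2 units (points, fitted change; bars, standard error; filled where the threshold was passed), in chromosomal order and not to scale. Right, place of the match to TGANTCA, the loose form of the AP-1 consensus, in the 100 bases before each RefSeq start. Mmp27 and Mmp7, the 2 genes that fell, differ in whether the match is present.

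Mmp27, a little-studied MMP, had levels of -3.16, -2.89 and -0.93 (lowest, median, highest) in normal glands and -8.26, -6.75 and -2.55 in carcinomas. Only carcinoma 3 reached into the normal range; the other 12 lay below the lowest normal gland. The probe was well above background on all 6 normal glands and on 4 of 13 carcinomas, so most carcinoma levels are near background. The change was -4.04 ± 0.65 with an adjusted p of 0.000268 in limma. It was -1.86 under a background correction by normexp, which kept the call with an adjusted p of 3.57e-05.

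Mmp7 is matrilysin, a small MMP made mainly by epithelial cells. Its levels were 0.82, 4.08 and 5.12 in normal glands and -3.77, -0.10 and 4.29 in carcinomas. The groups overlapped through normal gland 1, the lowest of its group, and carcinoma 1, the highest of its own, while 10 carcinomas lay below every normal gland. The change of -3.96 ± 0.90, or 15.6-fold, passed with an adjusted p of 0.00405. The probe was above background on all 19 arrays, so this fall was measured on both sides.

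Mmp3 and Mmp13 went the other way in part of the tumours, without passing the threshold. Mmp13 cleaves fibrillar collagen and had the largest spread among carcinomas of the 33 genes, with an SD of 2.94 in carcinomas and 1.60 in normal glands. Its levels were -5.29, -1.66 and -1.10 in normal glands and -3.93, -0.89 and 4.91 in carcinomas. In all, 7 carcinomas exceeded every normal gland, led by carcinomas 13, 10 and 8 at 4.91, 3.22 and 2.82, and the other 6 ran from -3.93 to -2.45. Those 6 lay inside the normal range through normal gland 1 alone, at -5.29; the other 5 normal glands ran from -2.38 to -1.10, above all 6. The change was 1.38 ± 1.17 with an adjusted p of 0.428.

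Mmp3, stromelysin, digests many matrix proteins and activates other MMP precursors. Its levels were -3.30, -2.65 and -1.0 in normal glands and -4.27, 0.84 and 3.69 in carcinomas. In 9 carcinomas it exceeded every normal gland, and carcinomas 5, 7, 11 and 12 did not. The change was 2.44 ± 0.94 with an adjusted p of 0.0676, short of the threshold. Without any one of those 4 carcinomas it passed.

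Across the 13 carcinomas Mmp3 and Mmp13 rose and fell together, with Pearson r = 0.72 (permutation p = 0.00587, adjusted 0.0215) and Spearman rho = 0.85 (permutation p = 0.00053, adjusted 0.00583). Without carcinomas 10 and 13, the farthest from the median Mmp13 level, r was 0.77, in the 10 carcinomas with numbered codes it was 0.69, and after centring each slide it was 0.90. This pair was added after the levels were seen, and 11 pairs were computed in all. The adjustment covers those 11 and not every pair it could have been picked from. Its p-values are therefore descriptions and not a test. The slides held 4, 4 and 5 carcinomas, too few for r within a slide.

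The remaining tested genes of the block were Mmp12, Mmp10 and Mmp1, none of which passed. Mmp12, the macrophage elastase, had levels of -0.61, 1.23 and 1.95 in normal glands and -2.48, -0.86 and 3.04 in carcinomas. Carcinoma 7 alone exceeded the normal glands and 7 carcinomas lay below them all. The change was -1.41 ± 0.57 with an adjusted p of 0.077, and it passed without normal gland 1 or without carcinoma 7. Mmp10, a second stromelysin, was above background in no normal gland and in 8 carcinomas, with a change of 0.29 and an adjusted p of 0.699. Mmp1, the interstitial collagenase, changed by 0.16 with an adjusted p of 0.801, and was above background in 2 normal glands and 10 carcinomas. Mmp8 and Mmp20 were above background on 5 and 2 arrays and were not tested.

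Among the membrane-type MMPs, 1 of 6 rose and 1 fell. Mmp16 encodes a protease anchored at the cell surface that can activate the Mmp2 precursor. Its levels were -7.30, -6.48 and -5.43 in normal glands and -5.57, -3.12 and -1.24 in carcinomas. All carcinomas except 7 and 13 exceeded every normal gland, and those 2 were also the only carcinomas in which the probe was not well above background. It was well above background in no normal gland, so the fold size is uncertain. Carcinomas were 7.60-fold higher when each normal gland took the higher of its array's dimmest detected signal and the probe's own signal. This value is near the fitted 7.91-fold and is no minimum, since normexp gave a smaller change. The fitted change was 2.98 ± 0.58 with an adjusted p of 0.00125. The gene entered the test through the carcinomas alone, so this p-value is a description and no support for a rise. The call ended under normexp, where the change was 0.35 with an adjusted p of 0.374.

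Mmp23 encodes a membrane protein that is cut free during secretion. Its levels were -0.56, 0.03 and 0.91 in normal glands and -3.66, -1.42 and -0.28 in carcinomas. The level lay below every normal gland in 11 carcinomas, and carcinomas 2 and 10 overlapped the lowest normal glands. The change was -1.94 ± 0.51 with an adjusted p of 0.00993.

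Mmp14 is the main cell-surface activator of the Mmp2 precursor and a collagenase of its own. Its levels were 3.66, 4.11 and 4.88 in normal glands and 2.87, 3.84 and 5.07 in carcinomas, with wide overlap. The change was -0.18 ± 0.29 with an adjusted p of 0.699, and its sign turned positive under several settings, among them quantile normalization at 0.14. The other members of the class, Mmp15, Mmp17 and Mmp24, had changes from -0.64 for Mmp24 to near 0 for Mmp17, without passing. The 2 probes of Mmp15 gave -0.52 and 0.65, opposite in sign, and neither passed.

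Of the other MMPs, Mmp11 fell. This stromelysin is activated inside the cell and is known as a product of tumour stroma. Its levels were -2.80, -1.82 and 0.25 in normal glands and -5.85, -3.37 and -1.23 in carcinomas. In 10 carcinomas it lay below every normal gland, while carcinomas 1, 3 and 8 fell inside the normal range. The change was -1.61 ± 0.53 with an adjusted p of 0.0345. It no longer passed without normal gland 2, 3, 4 or 5, when the adjusted p rose to as much as 0.126, nor with slide as a block (adjusted p 0.0569). Mmp19, the gene with the smallest spread among carcinomas (SD 0.45), had levels of -3.46, -3.04 and -1.88 in normal glands and -4.08, -3.33 and -2.33 in carcinomas. It changed by -0.47 ± 0.26 with an adjusted p of 0.203, and the groups overlapped broadly. Mmp28 did not pass either, and Mmp21 was above background on 0 arrays.

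The gelatinases Mmp2 and Mmp9, which degrade basement membrane collagen and denatured collagen, did not pass as group differences. Mmp2 had levels of 3.57, 4.12 and 4.53 in normal glands and 0.86, 3.17 and 4.58 in carcinomas. The levels of 9 carcinomas lay below every normal gland and carcinoma 3 alone lay above them. The change was -1.03 ± 0.42 with an adjusted p of 0.0835, it passed without carcinoma 3, and a second probe gave -0.88 with an adjusted p of 0.270. Mmp9 had levels of -5.67, -3.95 and -3.33 in normal glands and -7.19, -5.58 and -2.12 in carcinomas, above background on 5 and 8 arrays. Carcinomas 10 and 13 exceeded every normal gland and 6 carcinomas lay below them all. The change was -0.82 ± 0.63 with an adjusted p of 0.373.

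Within the carcinomas both gelatinases tracked markers of another cell type. A marker score is the mean level of the tested genes of a list, each centred on its mean over all arrays. Mmp9 followed the neutrophil score, from 6 tested genes of 8 such as S100a8 and S100a9, with r = 0.87 (permutation p = 0.00018, adjusted 0.00198) and rho = 0.77 (permutation p = 0.00264, adjusted 0.0121). Without carcinomas 10 and 13, r was 0.75, in the numbered carcinomas it was 0.86 and after centring slides 0.84. The Mmp9 probe was well above background on 8 of the 13 carcinomas, so r includes levels not well above background. The neutrophil score ran from -0.33 to 2.00 in normal glands and from -2.26 to 2.99 in carcinomas, and 0 of its 6 tested genes passed the group comparison.

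Mmp2 followed the fibroblast score, from 10 tested genes of 12 such as Col1a1 and Lum, with r = 0.79 (permutation p = 0.00135, adjusted 0.00742) and rho = 0.76 (permutation p = 0.00331, adjusted 0.0121). Without carcinomas 4 and 13, r was 0.81, in the numbered carcinomas it was 0.73 and after centring slides 0.77. Of the fibroblast markers 1 of 10 fell and 0 rose, and the score ran from -0.09 to 0.71 in normal glands and from -2.77 to 1.67 in carcinomas. The other pairs did not pass: r was 0.11 for Mmp11, 0.37 for Mmp14 and 0.54 for Timp2 with fibroblast markers, and 0.54 for Mmp12 and 0.59 for Timp1 with macrophage markers. Mmp2 and Mmp14 gave 0.54, and Mmp14 and Timp2 0.57. The lowest adjusted Pearson p among those 7 pairs was 0.0819.

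**Figure D3:**
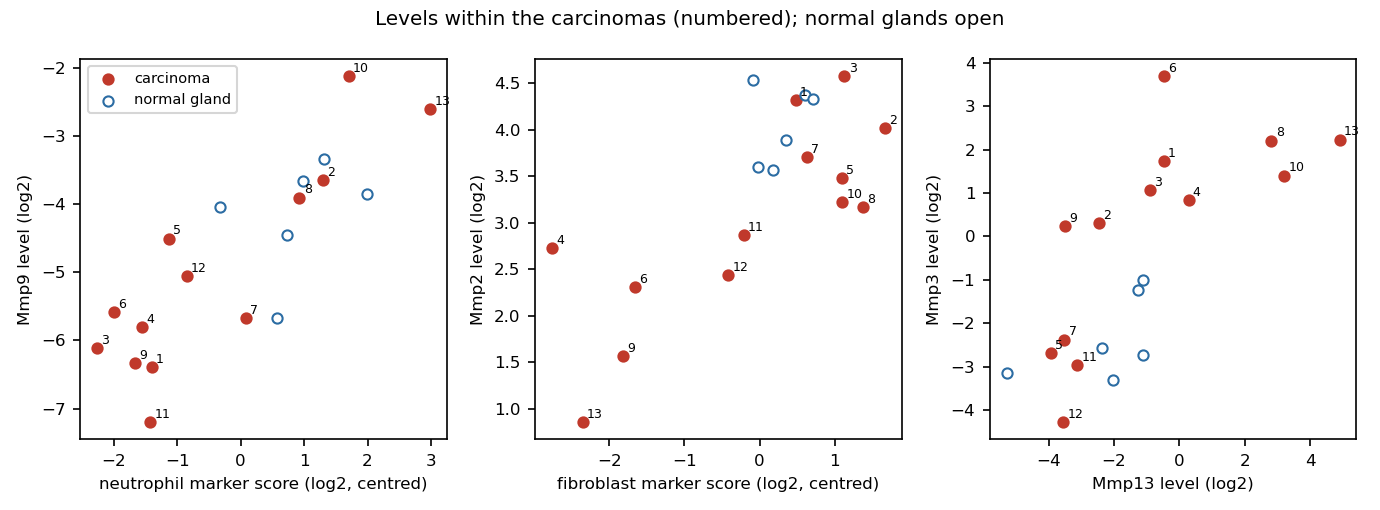
Levels in the 13 carcinomas (filled, numbered as in the titles) and 6 normal glands (open): Mmp9 against the neutrophil score, Mmp2 against the fibroblast score and Mmp3 against Mmp13, all axes in log2 units. The carcinomas line up with r of 0.87, 0.79 and 0.72; normal glands were not part of r.

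The ADAMTS proteases are secreted and bind the matrix through thrombospondin repeats. Adamts18, for which fibronectin is a reported substrate, rose. Its levels were -6.62, -4.78 and -4.05 in normal glands and -6.65, -0.21 and 2.20 in carcinomas. In 11 carcinomas the level exceeded every normal gland, 6 of them being above 0, while carcinoma 3 at -4.13 lay within the normal range and carcinoma 7 at -6.65 just below it. The probe was above background in 4 normal glands and 12 carcinomas. The change of 4.07 ± 1.01, or 16.8-fold, had an adjusted p of 0.00758 in limma, and the SD among carcinomas was 2.61 against 0.94 among normal glands. Under normexp the change was 2.22 with an adjusted p of 0.0141. With array brightness in the model the change was 0.93 and the adjusted p 0.800.

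Adamts5 is an aggrecanase, which cuts aggrecan and versican. Its levels were -3.38, -2.97 and -0.42 in normal glands and -4.91, -3.88 and -2.84 in carcinomas. Of the carcinomas, 10 lay below every normal gland, and normal glands 1 and 6 stood highest at -0.42 and -1.78. The change was -1.33 ± 0.38 with an adjusted p of 0.017, and without a single array it ranged from -1.52 to -0.92 and still passed; in the samples with numbered codes alone the adjusted p was 0.0716. The other proteoglycan-cleaving enzymes, Adamts1, Adamts4, Adamts9 and Adamts15, changed by -0.51 to 0.85, and 0 of these 4 passed. None of Adamts7, Adamts12 and Adamts19 passed, with changes from -0.46 to -0.21, nor did Adamtsl3 and Adamtsl4, which lack a protease domain. Adamtsl5 was above background on 1 array and was not tested.

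Of the 4 TIMPs, 3 fell. Timp4, the inhibitor known for high levels in heart and adipose tissue, had levels of 0.015, 1.04 and 1.26 in normal glands and -5.26, -2.45 and 0.30 in carcinomas. Carcinomas 2 and 6, at 0.20 and 0.30, lay just inside the normal range and the other 11 lay below it. The change was -2.92 ± 0.64, or 7.56-fold lower, with an adjusted p of 0.0031. A second probe gave -2.75 with an adjusted p of 0.00352, so both probes of the gene fell.

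Timp2, which also helps Mmp14 to activate the Mmp2 precursor, had levels of 5.15, 6.06 and 7.32 in normal glands and 3.97, 4.67 and 5.33 in carcinomas. Of the carcinomas, 9 lay below every normal gland, and the overlap came from normal gland 6, the lowest at 5.15. The change was -1.49 ± 0.27, or 2.81-fold lower, with an adjusted p of 0.000712. This gene had a smaller spread in carcinomas than in normal glands, with SDs of 0.48 and 0.73.

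Timp1, which binds the Mmp9 precursor, had levels of 2.23, 3.35 and 3.80 in normal glands and -0.77, 2.11 and 4.06 in carcinomas. Carcinoma 2 exceeded every normal gland and 7 carcinomas lay below them all. The change was -1.28 ± 0.46 with an adjusted p of 0.0481, just under the threshold. It ceased to pass without any one of 13 arrays (normal glands 1, 2, 3, 4 and 6 and carcinomas 3, 4, 5, 7, 8, 9, 11 and 13), when the adjusted p reached up to 0.12, and under quantile normalization the adjusted p was 0.0772. Timp3 is held in the matrix and also inhibits ADAM and ADAMTS enzymes. Its levels were -1.88, -1.18 and -0.64 in normal glands and -3.14, -1.79 and -0.93 in carcinomas, of which 6 lay below every normal gland. The change of -0.77 ± 0.32 had an adjusted p of 0.0871.

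**Figure D4:**
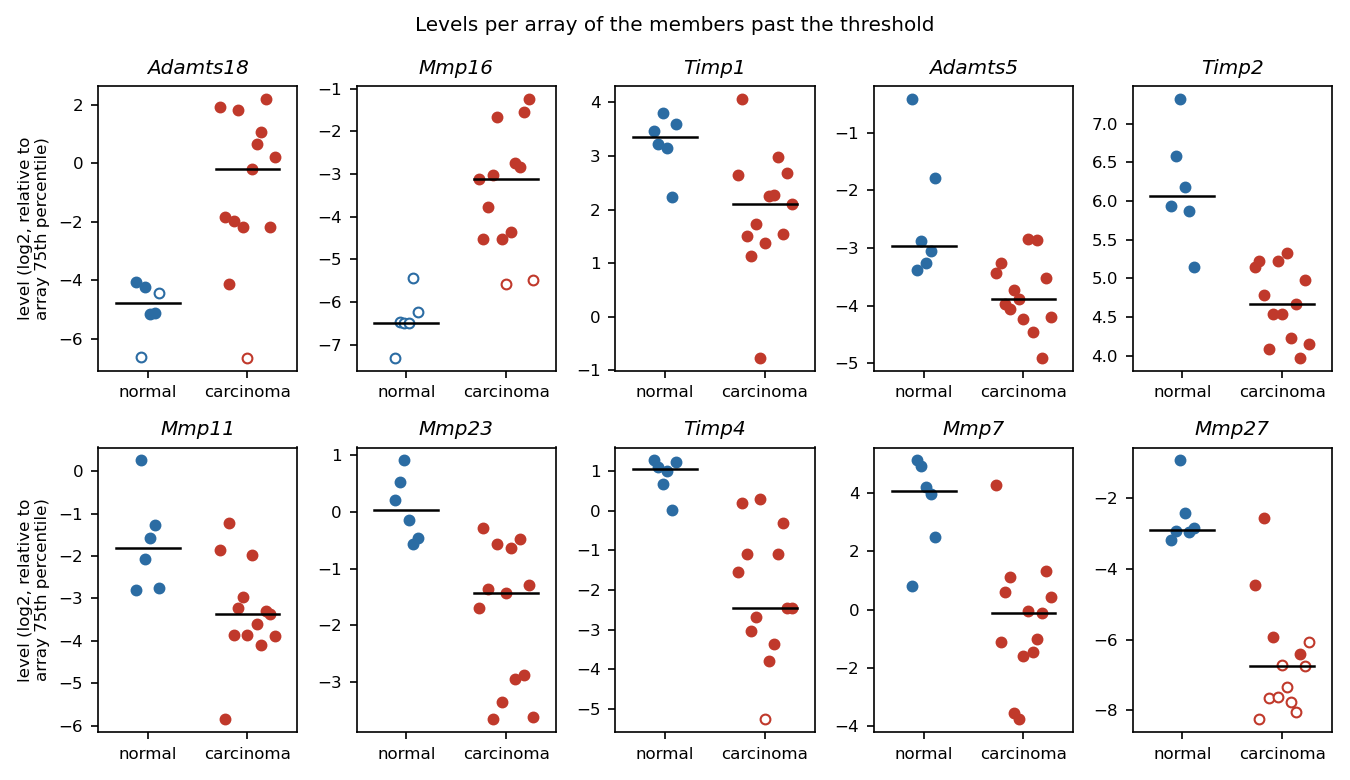
Level of each of the 10 genes that passed, in log2 units relative to the array's 75th percentile, per array (blue, 6 normal glands; red, 13 carcinomas; bars, medians; open points, probe not well above background). Every panel overlaps; Mmp16 is open in all 6 normal glands and Mmp27 in 9 of the carcinomas, the 4 filled ones being those above background.

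Markers of several other cell types were also lower in carcinomas, but only 0 of 6 tested neutrophil markers and 1 of 10 fibroblast markers were. All 9 tested adipocyte markers of 11 were lower in carcinomas, with scores of 3.27 to 4.70 in normal glands and -2.63 to -1.14 in carcinomas. Lower levels were also found for 6 of 7 tested endothelial markers, 6 of 10 macrophage markers and 6 of 8 lymphocyte markers, and 0 of these were higher. Scores ran from 0.31 to 2.04 and from -1.79 to 0.08 for endothelium, from 0.62 to 1.42 and from -1.78 to 0.67 for macrophages, and from 0.32 to 3.44 and from -2.28 to 0.86 for lymphocytes, in normal glands and carcinomas. Muscle markers fell in 1 of 6 cases, with a score of up to 6.70 in a normal gland and 2.57 in a carcinoma. Luminal markers rose in 2 of 10 cases and basal markers in 0 of 8. The filter on dim probes fixed in advance that no tested marker was below background on every array. The part of these cell types in the falls of Timp4, Timp2, Timp1, Mmp7, Mmp11, Mmp23, Mmp27 and Adamts5 was not tested. Among the carcinomas alone, Timp4 and the adipocyte score had r = -0.19 (permutation p = 0.535, adjusted 0.589).

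Spread was wide for these genes in both groups. Of the 33 genes 19 were above background on all arrays, and the SDs of the rest include levels not well above background. The median SD among carcinomas was 1.07 for the 33 genes and 0.60 for all genes, and among normal glands it was 0.83 and 0.53. In 24 of the 33 genes the carcinomas had the larger SD, as did 61.6% of all genes. The arrays at the extremes differed from gene to gene: carcinoma 13 was highest for Mmp13 and lowest for Mmp2, carcinoma 7 was highest for Mmp12 and lowest for Adamts18, Mmp16 and Timp4, and carcinoma 1 was highest for Mmp7. Carcinoma 7 was the dimmest carcinoma array, with a 75th percentile of 485 and 62.3% of spots well above background. The probes of Adamts18, Mmp16 and Timp4 were not well above background on it.

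**Figure D5:**
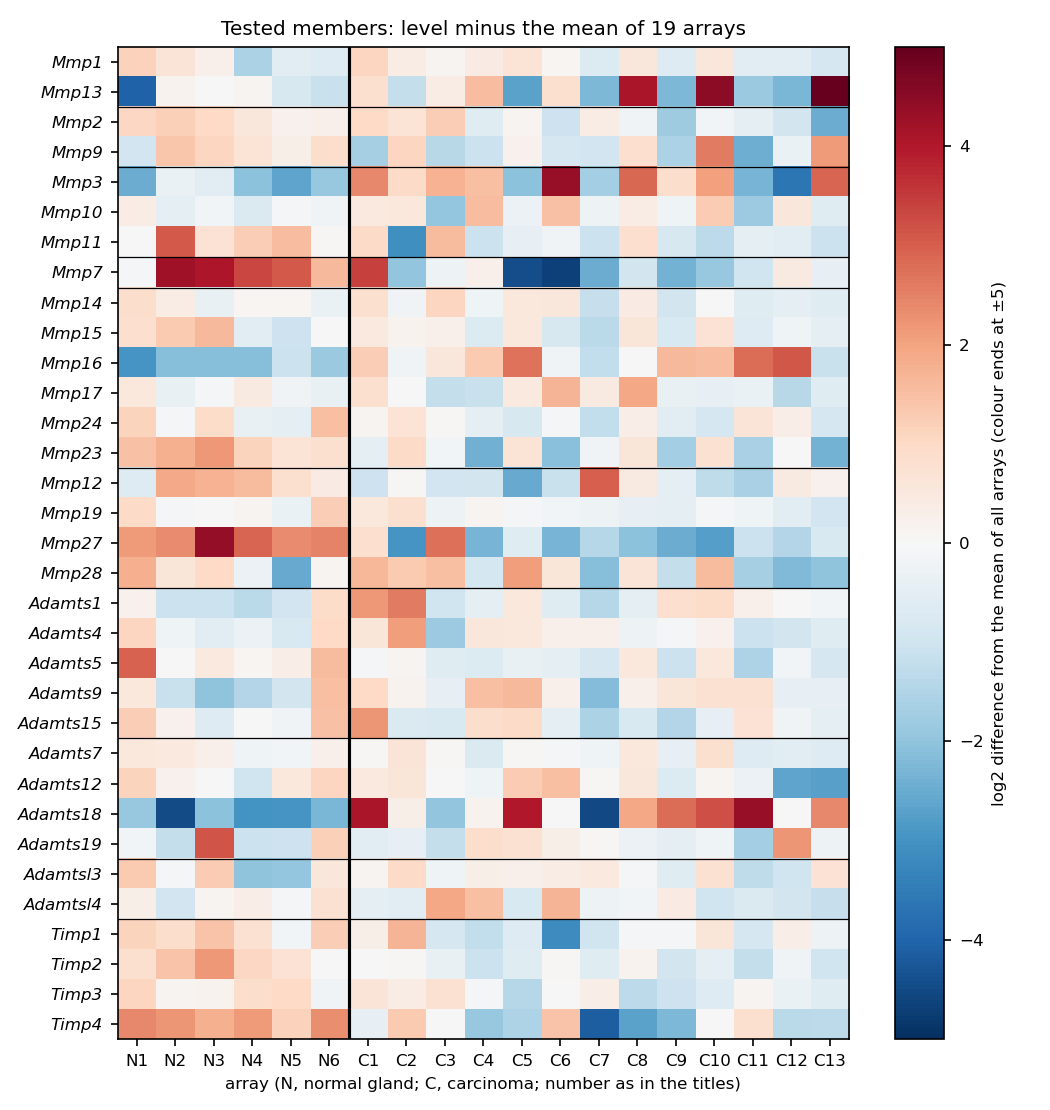
Level of the 33 tested genes minus their mean over all 19 arrays, in log2 units (red, above the mean; blue, below; colours end at 5 on either side), with normal glands N1 to N6 left of the black line and carcinomas C1 to C13 right of it. Mmp13 and Mmp3 are red together in carcinomas 8, 10 and 13, and the row of Adamts18 is blue in every normal gland and mixed in carcinomas.

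Slide was looked at within each of the 3 slides, although slide 3 held 1 normal gland. The 10 called genes kept their sign on every slide. Changes on slides 1, 2 and 3 were 4.41, 2.60 and 4.67 for Adamts18. They were 3.48, 1.99 and 3.13 for Mmp16. For Mmp27 they were -2.95, -4.76 and -4.09, and for Mmp7 -3.56, -5.51 and -2.36. The inhibitors gave -2.28, -3.34 and -3.24 for Timp4, -1.69, -1.50 and -0.52 for Timp2, and -1.01, -1.68 and -1.27 for Timp1. Mmp23 gave -1.52, -2.49 and -1.32, Mmp11 -1.50, -2.16 and -0.56, and Adamts5 -1.38, -0.99 and -1.89. With slide as a block 2 of the genes were higher and 7 lower, Mmp11 being the one lost, beside 1401 and 1798 of all genes. Because carcinoma arrays were brighter, a fit with array brightness as a covariate was also made; it left 0 genes higher and 2 lower (Mmp27 and Timp4), beside 11 and 172 of all genes, and brightness and group cannot be told apart.

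Partner genes of these enzymes were taken from lists of 56 genes, of which 41 were tested. Of these 3 rose, 2 fell and 36 did not pass; the share called was 12.2%, beside 22.9% of all genes, and the median change was -0.15. In the plasminogen system, whose protease plasmin activates several MMP precursors, 0 of 7 genes passed. Among ADAM and other metalloproteases 0 of 8 passed. Of the proprotein convertases, which cut the precursors of the membrane-type MMPs and of ADAMTS enzymes, 1 of 3 fell: Pcsk6, by 1.96 ± 0.41 on the log2 scale with an adjusted p of 0.00255. Of other inhibitors and inducers 1 of 6 fell, Cst3, the cysteine protease inhibitor cystatin C, by 1.90 ± 0.55 with an adjusted p of 0.0172.

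Of 17 tested substrates 3 rose and 0 fell, beside 9.7% of all genes higher and 13.2% lower. These counts are too small to read a direction of substrates from them. Lama5, a laminin chain of basement membranes, rose by 1.75 ± 0.36 with an adjusted p of 0.00205. Fbn2, a fibrillin of elastic microfibrils, rose by 1.48 ± 0.51 with an adjusted p of 0.04. Col4a1, a collagen chain of basement membranes, rose by 1.47 ± 0.53 with an adjusted p of 0.0496. Without single arrays the number of partner genes higher ranged from 1 to 5, so the count of 3 rests on few samples.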

How the data were processed

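Per the submitters' processing notes, Agilent Feature Extraction 10.7.3.1 read the scanned arrays. The deposited scanner files give each spot's background-subtracted intensity. The authors also deposited a log2 table, which equals the values used here plus a constant per array of 0.434 to 0.543 (column medians -3.25 to -2.75). Its scaling is not given in the sources used here.

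Control spots were left out (58717 spots, 30367 probes kept), spots marked uneven or outlying were set to missing, and log2 intensities were reduced by the array's 75th percentile. Replicate spots were averaged per probe. A RefSeq accession gave 18005 probes a symbol. A probe counted as above background on an array where at least 0.5 of its spots did, and was kept with at least 6 such arrays. The brightest probe stood for a gene; 6 of the 37 genes had 2 probes. Of the 12803 genes, 89 had missing values on some arrays and were fitted on the rest.

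Groups were compared with limma 3.58.1 in R 4.3.3 (intensity trend, 2-sided, Benjamini-Hochberg over all genes), tested on simulated data first. Correlations used 100000 permutations, 2-sided. Alternatives changed background correction, scaling, filter, probe rule, batches, brightness, pairing and single arrays. The files lack the mean pixel signal, so normexp (offset 50) used the median signal. Promoter sequences are from RefSeq (GRCr8), held for 28 of the 37 genes. The genes and lists were chosen with earlier results of these data known. Named are every gene past the threshold, Mmp2, Mmp9, Mmp14, Timp1 to Timp4, genes above background on all arrays of a group and none of the other (none was), and those with the largest and smallest carcinoma SD. Of the partner lists the 3 largest changes past the threshold in each direction are named. Replicate numbers did not pair samples: same-numbered arrays had correlations of deviations from -0.11 to 0.24. Array number limits the precision.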

Additional observations from a re-analysis of the deposited data

Results flagged for a closer look

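A pair of normal glands stood apart from the other 5 of their group in a single gene. Normal gland 1 had an Mmp13 level of -5.29 (log2, relative to the array's 75th percentile), against -2.38 to -1.10 in the others. Normal gland 3 had an Mmp27 level of -0.93, against -3.16 to -2.41 in the others. In both, the gap to the nearest array exceeded Dixon's critical share of the group's range. All 33 tested genes were looked at in the normal glands, and chance alone gives such a gap in about 1 of 20 groups.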

How the results depend on the processing

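Adamts18, Mmp27, Mmp7, Timp4, Timp2, Mmp23 and Adamts5 kept their calls without any single array. So did Mmp16, whose call is a description, since it entered the test through the carcinomas alone. All 10 called genes kept their direction under every setting tried. Without single arrays the genes higher numbered 2 to 3 and lower 6 to 8, and partner genes 1 to 5 higher and 1 to 3 lower. Under normexp 1 gene was higher and 20 lower (partner genes lower, 10), beside 925 and 5239 of all 12803 genes. The median of all genes was then -0.37. Relative to that median 2 genes were higher and 8 lower, beside 2469 and 1735 of all genes, and partner genes higher were 7. The counts match the main fit but the genes differ, with 1 of its higher and 6 of its lower genes kept. Mmp16, Mmp11 and Timp1 no longer passed, while Mmp3 (higher), Mmp1 and Mmp24 (both lower) did. Quantile normalization gave 1 partner gene lower and median scaling 5 higher; these scalings moved the median of all genes to 0.09 and 0.10. Requiring detection on every array of a group left 0 higher; Adamts18 and Mmp16 were then not tested. Within slide 1 there were 1 higher and 1 lower (partner genes lower, 1), beside 153 and 533 of all genes. Within slide 2 there were 0 and 2 (partners 0 and 0), beside 45 and 267. Slide 3 held 1 normal gland, so counts are not given for it. The samples with numbered codes gave 3 higher and 5 lower, beside 1629 and 1769 of all genes. Brightness as a covariate gave 0 higher and 2 lower (partners 0 and 0); 9 of the 33 then had an unadjusted p under 0.05.

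With the replicate block in samples 1 to 6 of both groups, 3 genes were higher and 5 lower (1 partner gene lower), beside 948 and 1333 of all genes. Without the number in the model 3 were higher and 6 lower (1 partner gene lower), beside 1139 and 1442. The sample with the same number correlated best for 1 of 6 numbers. The cause of these moves was not tested. The fits within slides and in samples 1 to 6 also held fewer samples.

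Mmp14 turned positive at 0.29 under normexp relative to the median, 0.14 under quantile normalization, 0.26 within slide 1, 0.093 within slide 3 and 0.30 in samples 1 to 6 with or without the replicate block. Mmp13 was -0.21 within slide 2. The r of Mmp11 with fibroblast markers was -0.055 without carcinomas 4 and 13 and -0.019 after centring slides, that of Mmp14 was -0.023 after centring, and that of Timp4 with adipocyte markers was 0.016 in numbered carcinomas. Probes near background, such as Mmp16, Mmp10 and Mmp27 in carcinomas, limit what fold sizes can show.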
